A study of Homo sapiens with 14 samples.

Results

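The CYP4F hydroxylases described here are the 6 genes CYP4F2, CYP4F3, CYP4F8, CYP4F11, CYP4F12 and CYP4F22, chosen by symbol out of 61541 genes in the count table. They were picked because their transcript counts differed between the RNA libraries of this study, so their RNA levels are given as a description, with no test. All 6 symbols matched 1 Ensembl gene each, and all 6 lie on chromosome 19 between 15508525 and 15934867 (hg38), a stretch of 426.343 kb.

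CYP4F enzymes are cytochrome P450 monooxygenases of the endoplasmic reticulum that add a hydroxyl group at or near the methyl (omega) end of fatty acids and their derivatives. Their substrates include arachidonic acid, leukotriene B4, prostaglandins, the side chains of vitamins K and E, and very long fatty acids. Omega-hydroxylation ends the signalling of leukotriene B4 and turns arachidonic acid into a vasoactive eicosanoid, and liver, kidney, intestine and neutrophils are the tissues where the family is best known.

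RNA was sequenced from a human pancreatic cancer line labelled BxPC-3, genotype WT, in 3 libraries labelled with a short hairpin against HDAC5 (shHDAC5) and 3 labelled with a control hairpin (shControl), all at day 3. HDAC5 is a class IIa histone deacetylase. GATA1, a zinc-finger transcription factor known from red blood cell development, was profiled by ChIP-seq in PANC-1, another pancreatic cancer line, at day 3. There were 2 immunoprecipitations and 2 inputs for shHDAC5 and 2 of each for the control, titled GATA1-NC and called shControl here. RNA and ChIP thus come from different lines. Since no label tells whether a group's libraries are from different cultures, p-values describe the spread among the libraries alone, and that spread can be technical.

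The RNA libraries held 15935649 to 16889876 counts under shHDAC5 labels and 15179758 to 17854340 under shControl labels. HDAC5 went against the labels, with 2737, 2816 and 3026 counts in the libraries labelled shHDAC5 against 1482, 1313 and 1618 in those labelled shControl, a log2 fold change of 0.79 ± 0.0358 (SE). Every direction below is therefore between libraries as labelled. The markers went against the labelled line in part: SMAD4 and CDKN2A, known to be deleted in BxPC-3, stood at 46.7 and 13.7 CPM (read counts scaled to library size) in the libraries labelled shHDAC5 and at 49.5 and 149 CPM in those labelled shControl. Of 10 markers of pancreatic ductal carcinoma, 9 were tested, of which 3 rose and 4 fell, against 44.8% and 39.9% of all genes tested. In at least 1 group 7 of the 10 exceeded 10 CPM. Higher under shHDAC5 than shControl labels were KRT17 (2123 against 822 CPM), KRT8 (1007 against 716 CPM) and CLDN4 (14.5 against 8.41 CPM). Lower under shHDAC5 labels were KRT7 (25.3 against 370 CPM), MUC1 (11.2 against 166 CPM), S100P (43.8 against 107 CPM) and KRT18 (326 against 403 CPM). The other 3, KRT19, EPCAM and CDH1, were at 0.0945, 1.98 and 1.32 CPM under shHDAC5 labels and at 0.0214, 1.84 and 1.42 CPM under shControl labels. Most of the transcriptome differed: of 19181 genes tested, 84.7% were called, 44.8% as higher and 39.9% as lower in the libraries labelled shHDAC5 (edgeR's quasi-likelihood test, adjusted p under 0.05).

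CYP4F2, which hydroxylates arachidonic acid, leukotriene B4 and the side chains of vitamins K and E, was the most abundant member. CYP4F2 (ENSG00000186115, chromosome 19, 15878023 to 15898074) had 2570, 2593 and 2676 counts in the libraries labelled shHDAC5 and no count in any of the 3 labelled shControl. The groups did not overlap, and the 3 libraries labelled shHDAC5 lay close together at 152, 148 and 149 CPM. Their mean was 149.6 ± 1.73 CPM (SD, n = 3). Against a floor of 3 counts over the shControl group, which is 0.0645 CPM, CYP4F2 was at least 2320-fold higher. Its spread between libraries, a coefficient of variation of 1.16%, was below the 1.96% that counting alone gives. By mean CPM it ranked 1225 of 39550 genes with a count in the libraries labelled shHDAC5.

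CYP4F12, which oxidises arachidonic acid and antihistamines and is known from the small intestine, came next. CYP4F12 (ENSG00000186204, chromosome 19, 15673087 to 15697174) had 869, 919 and 886 counts in the libraries labelled shHDAC5, against 5, 7 and 4 in those labelled shControl. All 6 libraries therefore held at least a trace of this transcript, and the groups were far apart. The levels were 51.0 ± 1.55 CPM under shHDAC5 labels and 0.350 ± 0.126 CPM under shControl labels (SD, n = 3 each). The log2 fold change was 7.18 ± 0.149 (SE), and the ratio of the CPM of the summed counts was 148-fold (95% counting interval 91.2 to 260, exact, counting error only).

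CYP4F3, the leukotriene B4 omega-hydroxylase of neutrophils, was the other member with counts under both labels. CYP4F3 (ENSG00000186529, chromosome 19, 15640897 to 15662825) had 94, 82 and 94 counts in the libraries labelled shHDAC5 and 6, 9 and 2 in those labelled shControl. The lowest shHDAC5 library stood well above the highest shControl library. Levels were 5.16 ± 0.435 CPM under shHDAC5 labels and 0.378 ± 0.254 CPM under shControl labels (SD, n = 3 each), with a log2 fold change of 3.79 ± 0.299 (SE) and a count ratio of 14.1-fold (95% counting interval 8.65 to 24.6). The gene is known to make a myeloid and a liver form by alternative splicing, which counts per gene do not separate.

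CYP4F8, known as the prostaglandin hydroxylase of the seminal vesicles, was seen only under shHDAC5 labels. CYP4F8 (ENSG00000186526, chromosome 19, 15615218 to 15630639) had 83, 108 and 95 counts in the libraries labelled shHDAC5 and none in the 3 labelled shControl. At 5.45 ± 0.652 CPM (SD, n = 3) it was at least 84.7-fold above the floor. The libraries within the shHDAC5 group differed by 11.95% (coefficient of variation), where counting alone gives 10.2%.

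CYP4F22, which omega-hydroxylates the ultra-long fatty acids of skin acylceramides and is mutated in a form of congenital ichthyosis, was low and uneven. CYP4F22 (ENSG00000171954, chromosome 19, 15508525 to 15552317) had 27, 16 and 42 counts in the libraries labelled shHDAC5, against 0 in each labelled shControl. Its spread under shHDAC5 labels was the widest of the 6 members, with a coefficient of variation of 44.2%, where counting alone gives 18.8%. The mean was 1.62 ± 0.715 CPM (SD, n = 3), at least 25.2-fold above the floor.

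CYP4F11, which acts on vitamin K, hydroxylated long fatty acids and several drugs, was the lowest. CYP4F11 (ENSG00000171903, chromosome 19, 15912377 to 15934867) had 14, 16 and 18 counts in the libraries labelled shHDAC5 and none in the 3 labelled shControl. The mean was 0.914 ± 0.0893 CPM (SD, n = 3), at least 14.2-fold above the floor. In the libraries labelled shControl 0 counts allow up to 3 over the group, so for CYP4F2, CYP4F8, CYP4F11 and CYP4F22 a level up to 0.0645 CPM was not detectable there. In bulk RNA, fewer cells with a transcript and less transcript per cell cannot be told apart.

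**Figure D1:**
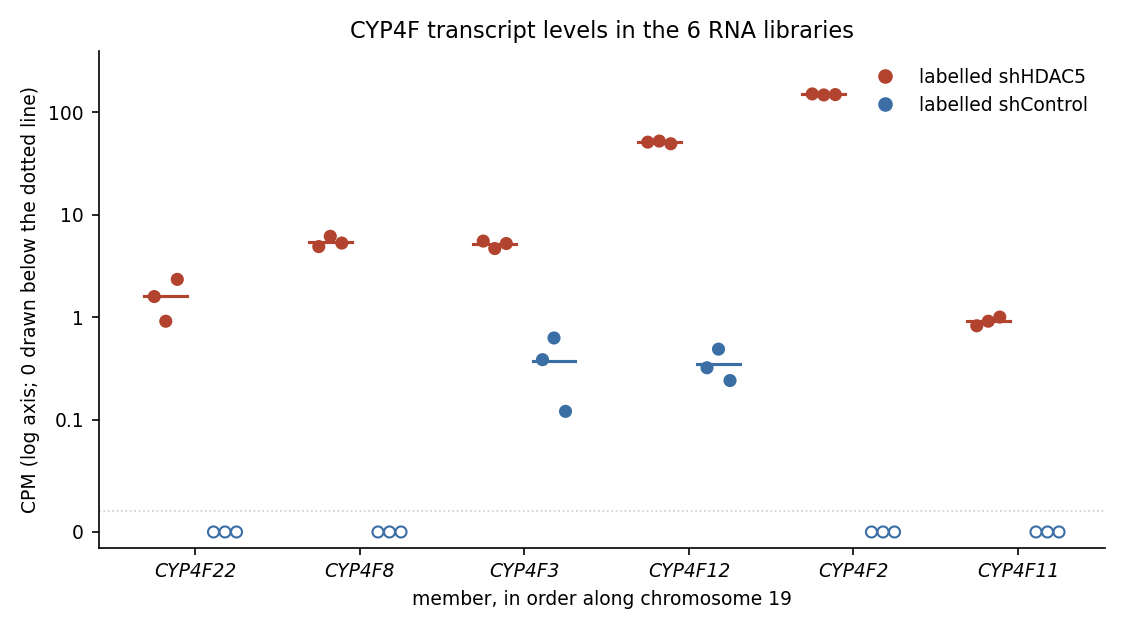
CPM (log axis) of the 6 CYP4F genes in each library, with libraries labelled shHDAC5 in red on the left of each pair and those labelled shControl in blue on the right; short lines are group means and open points below the dotted line are libraries with no count. CYP4F2 at 149.6 CPM and CYP4F12 at 51.0 CPM stand above the other 4, and only CYP4F3 and CYP4F12 have counts under shControl labels.

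All 6 members passed the filter on low counts, and 0 of them would have passed from the libraries labelled shControl alone. CPM higher under shHDAC5 labels with no overlap between groups was found for 45% of all genes tested, and lower CPM with no overlap for 39.8%. No count under shControl labels with at least 10 in each library labelled shHDAC5, which describes CYP4F2, CYP4F8, CYP4F11 and CYP4F22, was found for 721 genes or 3.76%. The opposite pattern was found for 13 genes or 0.0678%. Because the members were picked from this contrast, nothing is read from their count against these shares.

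The family's output was concentrated in CYP4F2. The 6 genes summed to 213.8 ± 1.59 CPM in the libraries labelled shHDAC5 and to 0.728 ± 0.377 CPM in those labelled shControl (SD, n = 3 each), in counts 11202 against 33. Of the counts under shHDAC5 labels CYP4F2 took 70.0% ± 0.465 and CYP4F12 23.9% ± 0.688 (SD, n = 3). The 33 counts under shControl labels were 17 of CYP4F3 and 16 of CYP4F12.

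Per kilobase of annotated exon the order under shHDAC5 labels was CYP4F2, CYP4F12, CYP4F3, CYP4F8, CYP4F22 and CYP4F11. CYP4F2 reached 48.3 ± 0.559 CPM per kb and CYP4F12 10.03 ± 0.304 CPM per kb (SD, n = 3), a ratio of 4.81 between the levels. CYP4F12 stood 10.7 times above CYP4F3, which had 0.935 ± 0.0789 CPM per kb. Neighbours further down were not separated: the library ranges of CYP4F3 and CYP4F8 (0.774 ± 0.0925 CPM per kb) overlapped, and so did those of CYP4F8 and CYP4F22 (0.619 ± 0.274 CPM per kb). CYP4F11 lay below all others at 0.245 ± 0.0240 CPM per kb. By this length-scaled level CYP4F2 made up 79.3% of the family and CYP4F12 16.5%. Under shControl labels CYP4F3 and CYP4F12 stood at 0.0685 and 0.0687 CPM per kb.

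Members of this family have near-identical copies, so reads may be shared or lost between them. The table lists 18 CYP4F pseudogenes, a list drawn up after the data were seen. Over the group they held 685 counts under shHDAC5 labels and 363 under shControl labels, against 11202 and 33 for the 6 genes. They did not all follow the members: CYP4F29P on chromosome 21 had 148 counts under shHDAC5 labels and 49 under shControl labels, while CYP4F26P on chromosome 9 had 27 under shHDAC5 labels and 225 under shControl labels. CYP4F23P, inside the cluster, is described with the neighbours below.

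For each member the 5 tested genes with the most similar levels were found by Euclidean distance of log2 CPM (prior count 2) over the 6 libraries. For CYP4F2 the nearest with a symbol were TFCP2L1, a grainyhead-like transcription factor, at a distance of 1.498 and 92.5 CPM under shHDAC5 labels, and ACTBL2, an actin, at 1.75 and 178 CPM. The closest of all was ENSG00000286403, given by ID alone, at 0.754 and 174 CPM. CYP4F12 lay nearest to SCN3B, a sodium channel subunit, and NOVA2, a neuronal splicing factor, at 0.789 and 0.804. CYP4F3 lay nearest to ENSG00000289039 and LINC01518 at 0.465 and 0.481, and CYP4F8 to NT5C1A, a cytosolic nucleotidase, at 0.133. CYP4F22 was nearest to CAPSL at 0.292 and CYP4F11 to LINC02273 at 0.108. These distances rest on 6 libraries that share 1 contrast.

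Genes next to the members were chosen by position alone, within the cluster and 100 kb to either side. Of 30 annotated neighbours 22 were in the count table, and 17 of these were without a count in all 3 libraries labelled shControl, 8 of them without a count under shHDAC5 labels too. Of the 5 that passed the filter, 4 rose and 1 fell, where 44.8% and 39.9% of all genes tested did so. UCA1, a long noncoding RNA known from bladder cancer, lies between CYP4F12 and CYP4F2 (15828947 to 15836321). It had 558, 583 and 530 counts in the libraries labelled shHDAC5 and none in the 3 labelled shControl, giving 31.9 ± 2.05 CPM (SD, n = 3) and a rise of at least 495-fold (adjusted p = 8.61e-62, edgeR's quasi-likelihood test). Another RefSeq gene, LOC124900418, overlaps UCA1, and reads of the pair cannot be told apart here.

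CYP4F23P, the pseudogene between CYP4F22 and CYP4F8, rose to 7.55 ± 0.648 CPM under shHDAC5 labels, against 1.04 ± 0.228 CPM under shControl labels (SD, n = 3 each; log2 fold change 2.86 ± 0.210 SE, adjusted p = 2.06e-24, edgeR's quasi-likelihood test). RASAL3, a regulator of Ras signalling in blood cells outside the cluster, rose with 399 counts over the group labelled shHDAC5 and 2 over that labelled shControl, a ratio of 177-fold (95% counting interval 48.7 to 1468). AKAP8L, a nuclear anchoring protein, rose to 126 ± 1.38 CPM under shHDAC5 labels, against 85.1 ± 0.944 CPM under shControl labels (SD, n = 3 each). WIZ, a zinc-finger partner of histone methyltransferases, fell by 0.24 on the log2 scale (adjusted p = 4.64e-07, edgeR's quasi-likelihood test), a call lost when libraries were scaled by total counts (log2 fold change -0.06, adjusted p = 0.189). The 5 olfactory receptor genes of the OR10H group among the neighbours held 12 counts under shHDAC5 labels and 0 under shControl labels. All but OR10H4, which lies past CYP4F11, sit between members, so genes with few reads lay between the members.

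**Figure D2:**
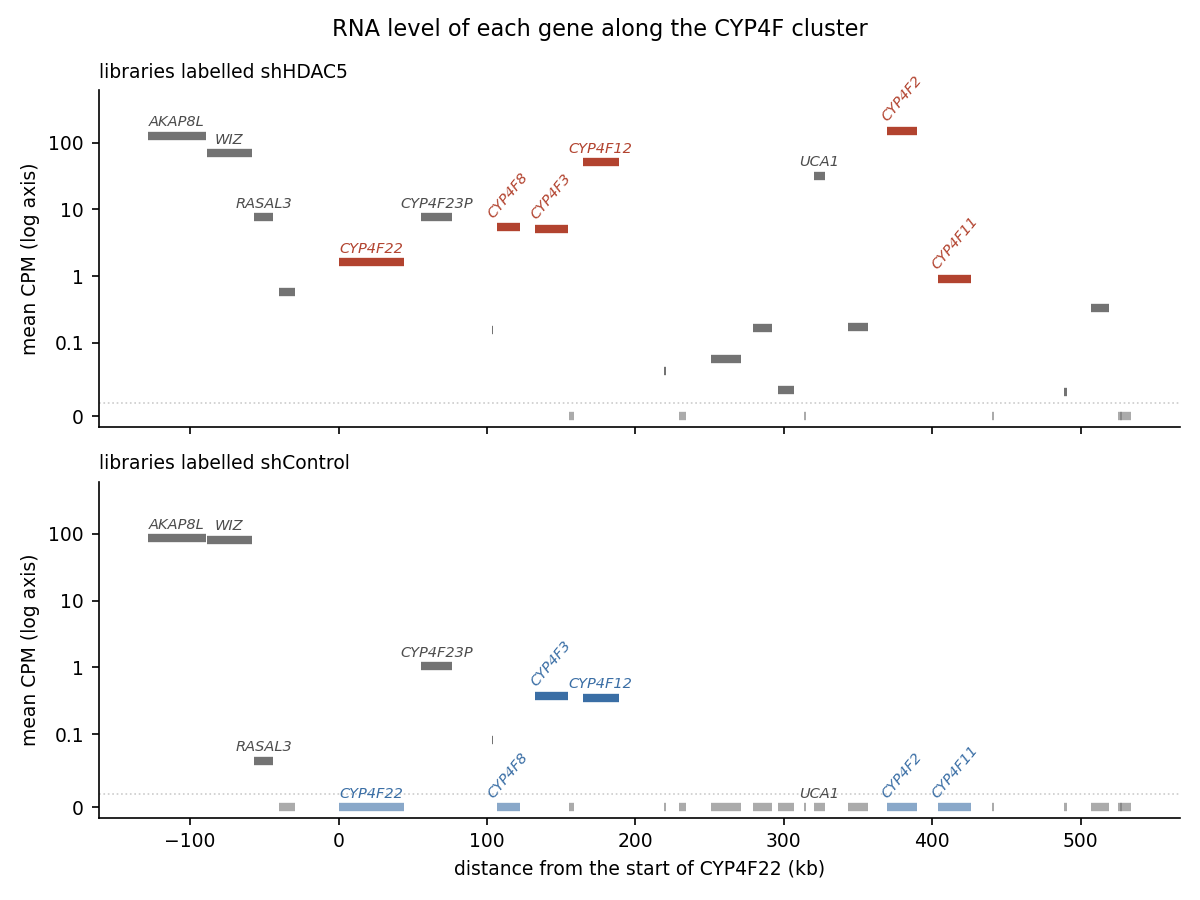
Mean CPM (log axis) of every counted gene along the cluster and 100 kb to either side, drawn as a bar from its start to its end in kb from the start of CYP4F22, with libraries labelled shHDAC5 above and shControl below; CYP4F genes are coloured, other genes grey, and genes with no count sit on the 0 line. AKAP8L and WIZ are above 60 CPM in both panels, while CYP4F2, CYP4F12 and UCA1 exceed 30 CPM in the upper panel only.

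The sequence before the transcription start was compared among the members because GATA1 was profiled in the same study. The RefSeq promoter table (GRCh38.p14) matched 5 of the 6 symbols. CYP4F12 had no entry, so no start of CYP4F12 was searched for motifs. The 250 bases before the start are printed 5′ to 3′ in the direction of the gene for 4 starts: that of CYP4F2 for its GATA hexamers, that of CYP4F8 for the peak over it, and those of CYP4F11 (upstream) and CYP4F3 for comparison. Capitals mark matches on either strand to the CCAAT box or to a GATA hexamer, which is AGATAA, or AGATAG, or TGATAA, or else TGATAG. CYP4F2 is at chr19:15898075-15898324 (minus strand), CYP4F8 at chr19:15614968-15615217 (plus strand), CYP4F3 at chr19:15641062-15641311 (plus strand), and the upstream start of CYP4F11 at chr19:15934868-15935117 (minus strand).
CYP4F2: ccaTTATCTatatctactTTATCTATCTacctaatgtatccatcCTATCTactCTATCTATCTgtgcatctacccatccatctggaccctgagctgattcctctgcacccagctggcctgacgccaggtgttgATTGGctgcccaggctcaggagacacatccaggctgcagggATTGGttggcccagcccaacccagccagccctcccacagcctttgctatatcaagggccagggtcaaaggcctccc
CYP4F8: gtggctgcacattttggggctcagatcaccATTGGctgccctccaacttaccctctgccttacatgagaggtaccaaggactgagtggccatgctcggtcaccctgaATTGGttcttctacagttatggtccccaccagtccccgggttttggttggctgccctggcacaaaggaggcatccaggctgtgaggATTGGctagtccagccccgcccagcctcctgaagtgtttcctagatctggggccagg
CYP4F11 upstream start: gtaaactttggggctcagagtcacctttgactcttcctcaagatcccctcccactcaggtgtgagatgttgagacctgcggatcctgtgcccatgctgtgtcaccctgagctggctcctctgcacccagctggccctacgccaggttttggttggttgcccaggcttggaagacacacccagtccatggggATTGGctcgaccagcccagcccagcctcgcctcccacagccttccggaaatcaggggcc
CYP4F3: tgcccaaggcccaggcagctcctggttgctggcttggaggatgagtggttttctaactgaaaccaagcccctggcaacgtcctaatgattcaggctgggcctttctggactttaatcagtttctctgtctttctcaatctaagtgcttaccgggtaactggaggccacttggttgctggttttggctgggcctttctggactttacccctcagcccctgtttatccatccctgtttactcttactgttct

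CYP4F2 was the only one of the 6 starts searched, counting both starts of CYP4F11, with a GATA hexamer in this window. It held 6, all on the opposite strand and lying 193 to 247 bases before the start. Some overlap each other, and all lie in a stretch where ATCT recurs, so 6 matches need not be 6 separate sites. A GATA hexamer was present in 22.3% of 35116 RefSeq promoters of this length, and 4 of them (0.0114%) held at least 6. The CCAAT box, bound by NF-Y, stood 117 and 76 bases before the start of CYP4F2, at 220, 143 and 57 bases for CYP4F8, at 59 bases for the upstream start of CYP4F11 and at 47 bases for its downstream start. It was present in 32.0% of promoters, at least 2 times in 9.53% and at least 3 times in 2.93%. CYP4F3 and CYP4F22 held neither motif in this window. CYP4F22 held 4 GC boxes (GGGCGG, either strand) and CYP4F8 held 1, where 42.6% of promoters held any.

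Pairs of these windows were alike to different degrees, and no baseline from unrelated sequence was computed. CYP4F2 and the upstream start of CYP4F11 were 63.0% identical over the alignment columns, gaps included, with a longest shared run of 20 bases. CYP4F8 and the upstream start of CYP4F11 were 61.9% identical, and CYP4F3 and the downstream start of CYP4F11 59.9%. CYP4F2 and CYP4F8 were 55.0% identical, and all other pairs lay between 40.3% and 49.5%. In the most alike pair, CYP4F2 stood at 149.6 CPM and CYP4F11 at 0.914 CPM under shHDAC5 labels. Counts per gene do not separate the upstream from the downstream start of CYP4F11, whose windows were 44.4% identical. Whether alike windows go with like RNA levels was not tested.

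GATA1 peaks over the cluster were weak in both lists. Each condition has 1 list, so no difference between them was tested against replicates. Peak names contradict the labels. Those in the list labelled shHDAC5 begin with GATA1-NC-IP, which is the title of the control samples. Those in the list labelled shControl begin with GATA1-SAHA-IP, and no sample title holds SAHA. Within the cluster and 10 kb around it (446.343 kb), 41 peaks of the list labelled shHDAC5 and 17 of the list labelled shControl had their summit. The list labelled shHDAC5 thus held 91.9 peaks per Mb there, where it had 84.3 per Mb of chromosome 19 and 82.7 per Mb of the genome. The list labelled shControl held 38.1 peaks per Mb there, where it had 124 per Mb of chromosome 19 and 40.2 per Mb of the genome. The authors' fold enrichment over the cluster had a median of 2.14 (range 1.71 to 3.85) in the list labelled shHDAC5 and 2.39 (range 2.10 to 3.23) in the list labelled shControl. The medians of the whole lists were 2.33 for the list labelled shHDAC5 and 2.73 for the list labelled shControl.

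No peak over the cluster had a q of at most 0.05 in either list, where 0.419% of all peaks labelled shHDAC5 and 5.10% of those labelled shControl did. The −log10 q was 0 for 37 of the 41 peaks labelled shHDAC5 and for 16 of the 17 labelled shControl. Fold values repeated, with 17 peaks at 2.14 in the list labelled shHDAC5 and 5 at 2.39 in the list labelled shControl. The highest fold in the list labelled shHDAC5 was 3.85, at chr19:15875137-15875479, past the end of CYP4F2. In the list labelled shControl it was 3.23, at chr19:15759831-15760814, between CYP4F12 and CYP4F2.

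Distances between summits and starts differed from member to member. They were measured to the starts in the promoter table, which leaves out CYP4F12. The shortest was at CYP4F8 in the list labelled shHDAC5, at chr19:15614786-15615214 with its summit 206 bases upstream and a fold of 2.14, which covers most of the CYP4F8 sequence printed above. The nearest summit in the list labelled shControl lay 983 bases upstream of CYP4F8. For CYP4F3 the nearest summits were 454 bases upstream in the list labelled shHDAC5 and 2820 bases downstream in the list labelled shControl. The annotated gene itself begins further out, at 15640897, and the summit in the list labelled shHDAC5, at 15640858, lies beside it. For CYP4F2, the member with the GATA hexamers, they were 10800 bases downstream in the list labelled shHDAC5 and 1644 bases upstream in the list labelled shControl. For CYP4F22 they were 5354 bases downstream in the list labelled shHDAC5 and 2024 bases upstream in the list labelled shControl. CYP4F11 had none nearer than 12560 bases to either of its starts in the list labelled shHDAC5.

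Within gene bodies the counts of peaks were small. CYP4F2, CYP4F3 and CYP4F22 each held 2 in the list labelled shHDAC5 and 1 in the list labelled shControl, while CYP4F11 and CYP4F12 each held 2 in the list labelled shHDAC5 and 0 in the list labelled shControl. CYP4F8 held 1 in the list labelled shHDAC5 and 2 in the list labelled shControl. Of the peaks over the cluster, 2 overlapped a peak of the other list by at least 1 bp, which is 4.88% of the list labelled shHDAC5 and 11.8% of the list labelled shControl. One of them lies inside CYP4F2, where chr19:15886162-15886545 and chr19:15885832-15886213 share 52 bases at folds of 1.71 in the list labelled shHDAC5 and 2.11 in the list labelled shControl.

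**Figure D3:**
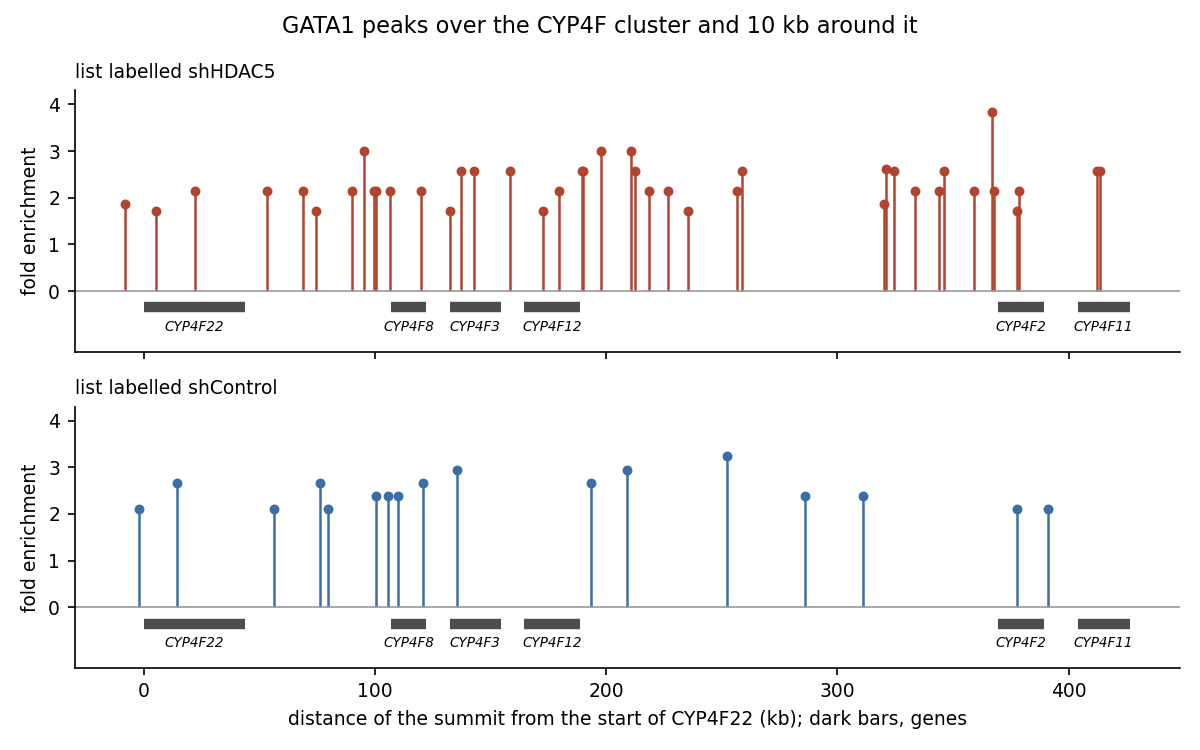
Fold enrichment of each GATA1 peak by the distance of its summit from the start of CYP4F22 (kb), with the list labelled shHDAC5 above and the list labelled shControl below; dark bars mark the 6 genes. The 41 peaks above and 17 below spread over the whole stretch at folds from 1.71 to 3.85, between the members as well as inside them.

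Genes that work with the CYP4F enzymes were taken from 8 lists with 92 genes. Of the 67 tested, 42 rose, 24 fell and 1 did not pass; their median log2 fold change was 0.37. Over all genes tested 44.8% rose, 39.9% fell and the median was 0.09. The list of omega hydroxylases outside the family held CYP4 genes only, and these were nearly silent. CYP4A11, CYP4A22, CYP4B1, CYP4V2, CYP4X1 and CYP4Z1 were all under 1 CPM in both groups, and 0 of 6 passed the filter on low counts. Of the tested genes CYP2J2, ADH1C and NR1H4 had no count under shControl labels, and with them at their bounds of at least 18.6-fold, 14.5-fold and 17.8-fold the medians of their lists are the same. The summed level of the 6 listed CYP4 genes outside the family was 0.502 to 0.685 CPM under shHDAC5 labels and 0.193 to 0.488 CPM under shControl labels.

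The list of epoxygenases and epoxide hydrolases, which form and open the epoxides of arachidonic acid, had 5 genes that rose and 2 that fell among 7 tested of 13 (median log2 fold change 0.84), where 44.8% of all genes tested rose and 39.9% fell. CYP1A1, which also oxidises polycyclic hydrocarbons, rose to 29.0 ± 0.968 CPM under shHDAC5 labels, against 1.37 ± 0.280 CPM under shControl labels (SD, n = 3 each; log2 fold change 4.39, adjusted p = 5.46e-55, edgeR's quasi-likelihood test). Its relative CYP1B1 fell to 15.7 ± 0.527 CPM under shHDAC5 labels, against 53.4 ± 0.250 CPM under shControl labels. CYP2U1, counted in this list although it hydroxylates arachidonic acid, rose to 11.4 ± 0.914 CPM under shHDAC5 labels, against 3.33 ± 0.176 CPM under shControl labels.

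Genes of electron donors of P450 enzymes, listed together with the P450-binding proteins PGRMC1 and PGRMC2, were present in both groups. Of 8 tested, 5 rose and 3 fell (median 0.29), against 44.8% and 39.9% of all genes tested. The 3 that fell were CYB5B, PGRMC1 and PGRMC2. POR, the NADPH reductase that feeds these enzymes, rose to 135 ± 2.24 CPM under shHDAC5 labels, against 95.8 ± 1.47 CPM under shControl labels (SD, n = 3 each; log2 fold change 0.49, adjusted p = 7.86e-24, edgeR's quasi-likelihood test). The cytochrome b5 reductase CYB5R1 rose by 1.99 ± 0.0567 on the log2 scale (SE), to 84.5 ± 4.98 CPM under shHDAC5 labels, against 21.2 ± 0.329 CPM under shControl labels. The cytochrome b5 of the outer mitochondrial membrane, CYB5B, fell to 159.5 ± 0.933 CPM under shHDAC5 labels, against 260.2 ± 3.42 CPM under shControl labels.

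Of 7 genes listed around leukotriene B4, the substrate of CYP4F3, 6 were tested, of which 5 rose and 1 fell (median 0.61), against 44.8% and 39.9% of all genes tested. The 1 that fell was LTC4S, which makes leukotriene C4, at 0.688 CPM under shHDAC5 labels and 1.77 CPM under shControl labels. ALOX5, the lipoxygenase that starts leukotriene synthesis, rose to 24.4 ± 0.891 CPM under shHDAC5 labels, against 1.80 ± 0.0598 CPM under shControl labels (SD, n = 3 each; log2 fold change 3.75, adjusted p = 2.29e-49, edgeR's quasi-likelihood test). Its helper ALOX5AP was at 0 counts over the libraries labelled shHDAC5 and at 2 over those labelled shControl. LTA4H, the hydrolase that makes leukotriene B4, rose to 228 ± 5.13 CPM under shHDAC5 labels, against 140 ± 6.02 CPM under shControl labels, and the receptor LTB4R rose to 42.6 ± 1.46 CPM under shHDAC5 labels, against 29.9 ± 1.201 CPM under shControl labels.

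Enzymes that carry omega-hydroxy fatty acids on to dicarboxylic acids and peroxisomal beta-oxidation had 8 genes that rose and 3 that fell among 11 tested of 15 (median 0.68), where 44.8% of all genes tested rose and 39.9% fell. ABCD3, a peroxisomal fatty acid transporter, rose to 209 ± 1.94 CPM under shHDAC5 labels, against 102 ± 0.622 CPM under shControl labels, and ACAA1, a peroxisomal thiolase, to 69.1 ± 0.184 CPM under shHDAC5 labels, against 21.8 ± 1.86 CPM under shControl labels (SD, n = 3 each). ALDH3A1, an aldehyde dehydrogenase, fell to 1.71 ± 0.524 CPM under shHDAC5 labels, against 29.0 ± 1.92 CPM under shControl labels (log2 fold change -4.07, adjusted p = 1.93e-53, edgeR's quasi-likelihood test).

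For vitamins K and E, whose side chains are substrates of CYP4F enzymes, 3 of 7 tested genes rose and 4 fell (median -0.20), against 44.8% and 39.9% of all genes tested. NQO1, a quinone reductase, fell to 12.01 ± 0.573 CPM under shHDAC5 labels, against 138 ± 5.45 CPM under shControl labels (SD, n = 3 each; log2 fold change -3.52, adjusted p = 5.68e-83, edgeR's quasi-likelihood test). GGCX, the vitamin K-dependent carboxylase, rose to 107 ± 5.17 CPM under shHDAC5 labels, against 59.7 ± 4.32 CPM under shControl labels.

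Among genes of acylceramide and skin barrier lipids, the pathway of CYP4F22, 7 of 9 tested rose and 2 fell (median 0.49), against 44.8% and 39.9% of all genes tested. One of the 7, the lipid transporter ABCA12, lost its call with DESeq2 (adjusted p = 0.112) and with the replicate block (adjusted p = 0.0701, edgeR). UGCG, the glucosylceramide synthase, rose to 112 ± 3.92 CPM under shHDAC5 labels, against 60.3 ± 3.07 CPM under shControl labels (SD, n = 3 each; adjusted p = 3.67e-38, edgeR's quasi-likelihood test). DEGS1, a sphingolipid desaturase, fell to 37.9 ± 1.22 CPM under shHDAC5 labels, against 75.0 ± 3.56 CPM under shControl labels. CERS3 and PNPLA1, which act after CYP4F22 in acylceramide synthesis, were under 1 CPM in both groups and were not tested.

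Transcription factors of lipid and xenobiotic metabolism split evenly, with 9 genes that rose, 9 that fell and 1 that did not pass among 19 tested of 23 (median 0.15), where 44.8% of all genes tested rose and 39.9% fell. Retinoid receptors went both ways: RXRA fell to 47.6 ± 3.09 CPM under shHDAC5 labels, against 138 ± 3.61 CPM under shControl labels, and RARG to 18.3 ± 1.16 CPM under shHDAC5 labels, against 89.9 ± 4.71 CPM under shControl labels, while RARB rose to 13.2 ± 0.908 CPM under shHDAC5 labels, against 0.164 ± 0.226 CPM under shControl labels (SD, n = 3 each). NR1H3, the liver X receptor alpha, fell to 8.95 ± 1.35 CPM under shHDAC5 labels, against 59.1 ± 2.86 CPM under shControl labels (log2 fold change -2.72, adjusted p = 3.06e-59, edgeR's quasi-likelihood test). GATA1 itself stood at 2.84 ± 0.436 CPM under shHDAC5 labels and 0.343 ± 0.0928 CPM under shControl labels, and PLA2G4A, the phospholipase that frees arachidonic acid, at 51.6 ± 3.06 CPM under shHDAC5 labels and 24.6 ± 2.47 CPM under shControl labels (SD, n = 3 each).

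**Figure D4:**
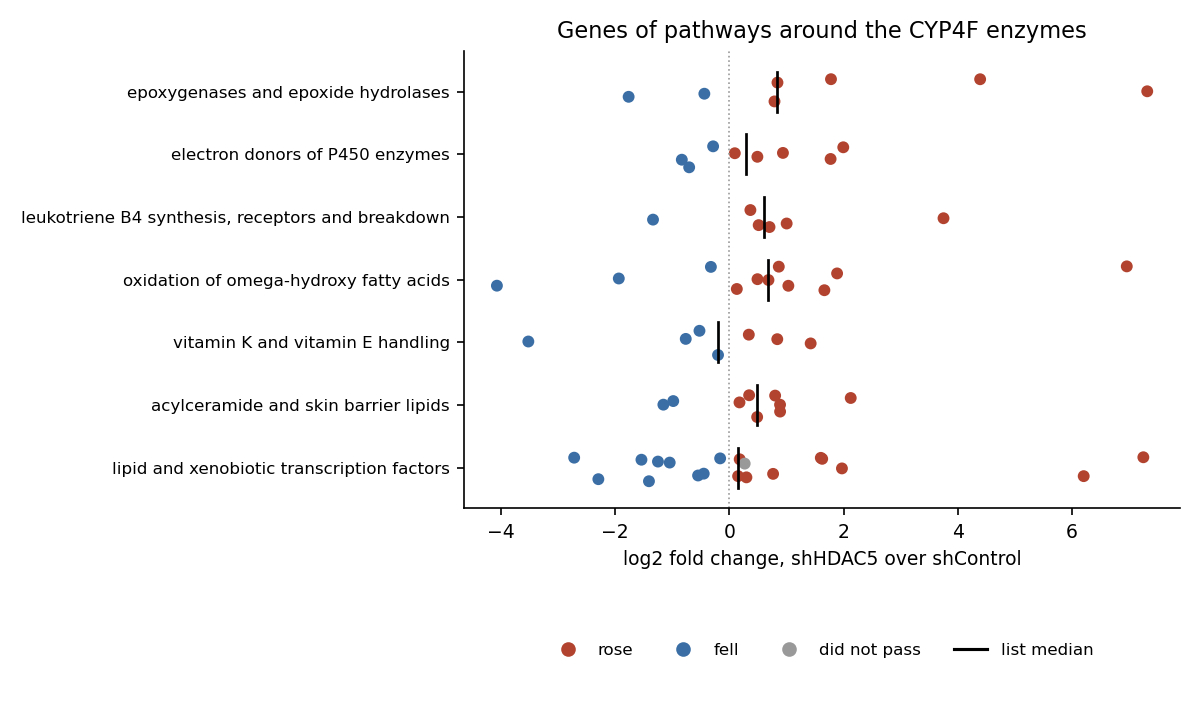
Fitted log2 fold change (shHDAC5 over shControl; for CYP2J2, ADH1C and NR1H4 it depends on the prior count) of the 67 tested genes by list; red genes rose, blue genes fell, the grey gene did not pass, and black lines are list medians. Medians run from -0.20 for vitamin K and vitamin E handling to 0.84 for epoxygenases and epoxide hydrolases, with genes on both sides of 0 in each of the 7 lists with tested genes.

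Markers of tissues in which single members are known were measured in the same libraries. For hepatocytes, the tissue of CYP4F2, CYP4F3 and CYP4F11, 10 markers summed to 6.69 to 7.96 CPM under shHDAC5 labels and 8.60 to 9.33 CPM under shControl labels. None of these 10 exceeded 10 CPM, with 3 that rose and 2 that fell among 5 tested, against 44.8% and 39.9% of all genes. ALB rose with 106 counts over the group labelled shHDAC5 and 0 over that labelled shControl, SERPINA1 with 144 and 8, and TF with 53 and 3. FGB fell with 22 counts under shHDAC5 labels and 274 under shControl labels, and FGG with 32 and 120. APOA1 and APOA2 had 1 count over each group, and TTR had none. For neutrophils, the tissue of CYP4F3, 10 markers summed to 9.55 to 11.7 CPM under shHDAC5 labels and 10.7 to 12.4 CPM under shControl labels, with none over 10 CPM, and of 3 tested 1 rose, 1 fell and 1 did not pass. S100A9, a neutrophil calcium-binding protein, rose with 82 counts under shHDAC5 labels and 0 under shControl labels, and the elastase ELANE fell with 35 counts under shHDAC5 labels and 173 under shControl labels. CXCR2, a chemokine receptor below the filter, had 24 counts under shHDAC5 labels and 0 under shControl labels, PTPRC had 5 under shHDAC5 labels and 1 under shControl labels, and S100A12 had none. The 11 markers of enterocytes and proximal tubule, tissues of CYP4F12 and CYP4F2, summed to 116 to 121 CPM under shHDAC5 labels and 1895 to 1961 CPM under shControl labels. Nearly all of that was ALPI, an intestinal phosphatase, at 113 CPM under shHDAC5 labels and 1931 CPM under shControl labels. Of 3 tested in this list 2 rose and ALPI fell. CUBN, an endocytic receptor of the tubule, rose with 176 counts under shHDAC5 labels and 6 under shControl labels, and VIL1, a brush border protein, with 67 counts under shHDAC5 labels and 7 under shControl labels. Below the filter, LRP2 had 29 and SLC22A8 39 counts under shHDAC5 labels, against 0 each under shControl labels, and APOA4 had no count in either group. The part of these 3 lists in the members' levels was not tested.

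For seminal vesicle and prostate, the tissue of CYP4F8, 10 markers summed to 63.4 to 71.7 CPM under shHDAC5 labels and 12.6 to 14.4 CPM under shControl labels, with 3 that rose and 2 that fell among 5 tested, against 44.8% and 39.9% of all genes. Most of the sum under shHDAC5 labels was SEMG2, a seminal fluid protein, at 46.4 CPM there and 0 under shControl labels. KLK3 had 5 counts over the group labelled shHDAC5 and none under shControl labels. The 2 that fell were HOXB13 (5.96 CPM under shHDAC5 labels, 9.63 under shControl labels) and ACP3 (0.613 and 1.53 CPM). MSMB, below the filter, had 3 counts under shHDAC5 labels and 7 under shControl labels. For keratinocytes, the tissue of CYP4F22, 10 markers summed to 68.4 to 74.8 CPM under shHDAC5 labels and 37.6 to 42.9 CPM under shControl labels, and the 4 that were tested rose, against 44.8% of all genes tested. KRT10 was at 47.4 CPM under shHDAC5 labels and 40 CPM under shControl labels and TP63 at 14.3 CPM under shHDAC5 labels and 0.460 CPM under shControl labels, while KRT5 and KRT14 stayed under 1 CPM in both groups. The sums of both lists, though not every marker, were higher under the labels where the members were high. The part of these lists in the members' levels was not tested.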

How the data were processed

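The deposited RNA table gives integer read counts for each Ensembl gene and its length in bases, without normalization by the authors. The submitters' processing notes name the build hg38 and, without roles, MACS2 2.2.7.1, featureCounts 2.0.1, fastp 0.23.2, deepTools 3.5.0 and FastQC 0.11.9. Not given in the sources used here are the aligner, annotation release, strand setting and any pooling of ChIP samples. The deposited peak lists give, per the file columns, a score, a fold enrichment (ratio) and a −log10 q for each peak, all the authors' own. Input samples were not analysed here.

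With edgeR 4.0.16 (R 4.3.3), 19181 genes kept by its low-count filter were normalized by TMM factors and tested on group by its quasi-likelihood test, with Benjamini-Hochberg adjustment over all of them and a threshold of 0.05. CPM use TMM-scaled library sizes, and standard errors are log2 fold changes divided by the square root of the F statistic. Where a group had no counts, 3 counts over that group served as the floor for a fold, and counting intervals are exact 95% ones that cover counting error only. The test was checked on simulated counts in which few genes changed, so the check does not cover a contrast with most genes called. Replicates of a group differed beyond sampling noise, and no pair was identical. Gene names were found for 61369 of 61541 IDs, and gene coordinates and promoters came from RefSeq (GRCh38.p14). Python 3.11.15 with Biopython 1.88 gave alignments and motif counts.

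The members and gene lists were chosen with earlier results of these data known. Named genes are the members, HDAC5, GATA1 and PLA2G4A, up to 4 called genes per list with the smallest adjusted p, neighbours passing the filter, the 5 nearest genes per member (of which the closest are printed), markers above 10 CPM (1 that meets this is not reported here), and the peaks of highest fold or nearest to a start. Outside this rule POR, PGRMC1, RARB, ALOX5AP, LTC4S, ABCA12, CERS3, PNPLA1, the silent omega hydroxylases, the pseudogenes and markers under 10 CPM were added after their values were seen. Alternatives were DESeq2 1.42.0, other scalings and filters, a 2-fold minimum, a block for the replicate number, fits without each library, and other peak thresholds, margins and overlaps.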

Additional observations from a re-analysis of the deposited data

How the results depend on the processing

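Counts of called genes held within 1.5 times their main value under other scalings, filters, DESeq2 and the left-out libraries, apart from the following. With at least 2-fold change required, 5071 genes rose and 3846 fell, in the pathway lists 18 rose and 12 fell, and 0 neighbours fell. Without a filter on low counts 8 neighbours rose, since more genes are tested, and with total counts 0 fell. Leaving out each library in turn gave 8499 to 8882 genes that rose and 7622 to 7718 that fell, and 39 to 42 and 24 in the pathway lists. The summed CYP4F level under shHDAC5 labels was 216.1 CPM with RLE factors, 224.5 with upper-quartile factors and 227.7 with total counts, and 209.3 to 215.8 CPM with a library left out. Without a filter 2 omega hydroxylases outside the family rose; with this, 17 values for single lists, CYP4F3 or CYP4F12 moved and 229 did not. These scalings moved the median log2 fold change of all genes by 0.03, 0.14 and 0.18. The log2 fold change of CYP4F12 ranged over 6.95 to 7.46 and that of CYP4F3 over 3.32 to 4.31 with a library left out.

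Over the cluster, 0 peaks were left in the list labelled shHDAC5 and 0 in the list labelled shControl at a q of at most 0.05, and 2 and 1 at a fold of at least 3. With an overlap of at least 50% of the shorter peak, 1 was shared. Deviations of same-numbered libraries correlated at -0.0126, 0.00258 and 0.00593, so no effect shared by number was seen. These correlations cannot tell whether same-numbered libraries were prepared together. With the replicate block 8514 genes rose and 7558 fell, and 41 and 24 in the pathway lists. Some pathway calls were lost: CYB5R3 with DESeq2, ABCA12 with DESeq2 and the block, and AIFM2 and SREBF1 with upper-quartile factors and total counts. CEBPA, not called in the main test, was called with those 2 scalings. The cause was not tested. Depth limits CYP4F11 and CYP4F22, with 14 to 42 counts per library labelled shHDAC5.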
